A study of Homo sapiens with 4 samples.

Results

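The 84 genes described here encode the heat shock proteins of the HSPA, HSPB, HSPD, HSPE, HSPH and HSP90 classes, the DNAJA, DNAJB and DNAJC co-chaperones, and the subunits of the cytosolic chaperonin TRiC. They were chosen by symbol alone, from the 19974 symbols listed for each library, and the rule uses no measured value, although it was set with earlier results of these data known. Cells of HCT116, an established human line from a colorectal carcinoma, were transfected with a control non-targeting siRNA (si-NC) or with siRNA against LINC00152 (si-152), each at 100 nM. RNA was taken 36 h after transfection, with 2 biological replicates in each group and thus 4 libraries. LINC00152 is a long noncoding RNA, and the comparison asks how its suppression changed the mRNA profile; LINC00152 itself was not analysed here, and how far the siRNA lowered it is therefore not shown.

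Chaperones bind unfolded or partly folded proteins, and the families divide the work. HSP70 proteins hold short hydrophobic stretches of a client in a cycle driven by ATP, and DNAJ proteins, named after bacterial DnaJ, bring clients to HSP70 and stimulate its ATPase. HSP90 takes over late folding intermediates such as kinases and steroid receptors, small heat shock proteins keep damaged proteins from aggregating, and chaperonins enclose a client in a chamber. The mitochondrial chamber is built from HSPD1 and closed by HSPE1, whereas TRiC is a double ring that folds actin and tubulin in the cytosol. Heat shock factor 1 (HSF1) induces many of these genes under proteotoxic stress by binding heat shock elements, which are alternating GAA and TTC units in the promoter.

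The heat shock element is the sequence that HSF1 binds, so matches to it are shown first. RefSeq promoter windows (250 bases before to 50 bases from the annotated start on, GRCh38.p14) were matched by symbol for 74 of the 84 genes, and both strands were searched for GAANNTTCNNGAA, which is 3 alternating units. This pattern was found for 7 of the 74 genes (9.46%) and for 166 of the 27305 symbols with a window (0.608%). The 7 genes were HSPA8, HSPA6, HSP90AA1, HSP90AB1, HSPD1, DNAJA1 and DNAJB6. The windows below are 30 bases long, on the strand of the gene, with the matched units and their spacers in capitals:
HSPA8, chr11:123062345-123062374, minus strand: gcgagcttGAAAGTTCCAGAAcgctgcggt
HSPA6, chr1:161524458-161524487, plus strand: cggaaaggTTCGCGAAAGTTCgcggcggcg
HSP90AA1, chr14:102087111-102087140, minus strand: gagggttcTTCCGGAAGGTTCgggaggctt
HSP90AB1, chr6:44247770-44247799, plus strand: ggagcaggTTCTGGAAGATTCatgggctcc
HSPD1, chr2:197500061-197500090, minus strand: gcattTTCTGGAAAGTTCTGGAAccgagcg
DNAJA1, chr9:33025268-33025297, plus strand: gccgggcgGAACTTTCCAGAAcgctcggtg
DNAJB6, chr7:157336865-157336894, plus strand: agagccgaGAACCTTCGCGAAggtggggcg
HSPA8, HSP90AB1 and HSPD1 each held 2 matches, and the 2 in HSPD1 overlap within the stretch shown. The shorter pattern of 2 units (GAANNTTC or TTCNNGAA, each also part of any longer match) was found for 26 of the 74 genes (35.1%) and for 16.2% of all symbols. By family, 4 of 6 small heat shock protein genes, 7 of 13 HSP70 and HSP110 genes and 4 of 8 TRiC genes held it, against 2 of 25 DNAJC genes. A match gives letters only and does not show that a factor binds there. Nor was the 3-unit pattern found for every inducible gene, since HSPA1A, HSPA1B and DNAJB1 held matches of 2 units only. It was found for HSPA8 and HSP90AB1, which are constitutive forms but also belong to the genes listed here as commonly induced by HSF1.

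**Figure D1:**
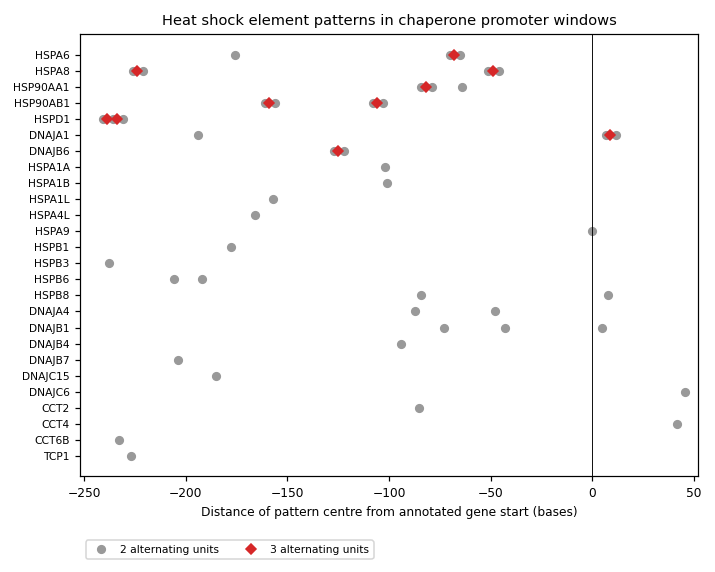
Each point is the centre of a heat shock element pattern, plotted by its distance in bases from the annotated gene start (vertical line), for the 26 chaperone genes whose promoter windows held one. Red diamonds are matches of 3 alternating units, found for 7 genes, and grey circles are matches of 2 units.

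The 4 tables hold 1 FPKM value per gene symbol (fragments scaled to transcript length and to library size), the unit being inferred from the values. If the values are FPKM, which is per transcript length, levels can be compared between genes. The orders of level given below rest on this inference. The summed FPKM was 424754 to 534311 per library, the number of reads is unknown, and no counting error can be given. A bulk library cannot tell a change in RNA per cell from a change in the mix of cells. Of 8 epithelial markers, 6 were at 1 FPKM or more in at least 2 libraries (EPCAM was at 191 to 239.5 FPKM), KRT20 was at 0 in all 4 libraries and VIL1 reached at most 0.0567 FPKM. Of 3 leukocyte markers, CD68 was at 2.73 to 3.47 FPKM, CD3E reached at most 0.039 FPKM and PTPRC was at 0 in every library. Of 3 fibroblast markers, COL1A1 was at 7.02 to 7.98 FPKM, COL3A1 reached at most 0.0174 FPKM and DCN was at 0 throughout. The 84 chaperone genes together took 1.41% and 1.18% of the FPKM sum with si-NC, against 1.31% and 1.27% with si-152, a range within which the groups overlap.

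Of the 84 genes, 65 reached 1 FPKM in at least 2 libraries and were tested, and for 0 of them was this level reached in 1 group only. The other 19 stayed at or below 0.439 FPKM in every library, with 7 at 0 throughout (DNAJB3, DNAJB7, DNAJB8, DNAJC5B, HSPB3, HSPB7 and HSPB9). Among the 19 are the readthrough symbols HSPE1-MOB4 and DNAJC25-GNG10, which share exons with their parent genes. On average, 17 genes were above 100 FPKM and 44 were above 10 FPKM. HSPA5, the HSP70 of the endoplasmic reticulum (ER), was the most abundant, with a mean of 1135 FPKM and rank 50 to 75 among all symbols. HSP90AB1 (mean 597 FPKM) and HSP90B1 (581 FPKM) came next and overlapped each other, followed by HSPB1 (418 FPKM) and HSPD1 (319 FPKM), which also overlapped each other. HSPA5 in each library was above every value of HSP90AB1.

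**Figure D2:**
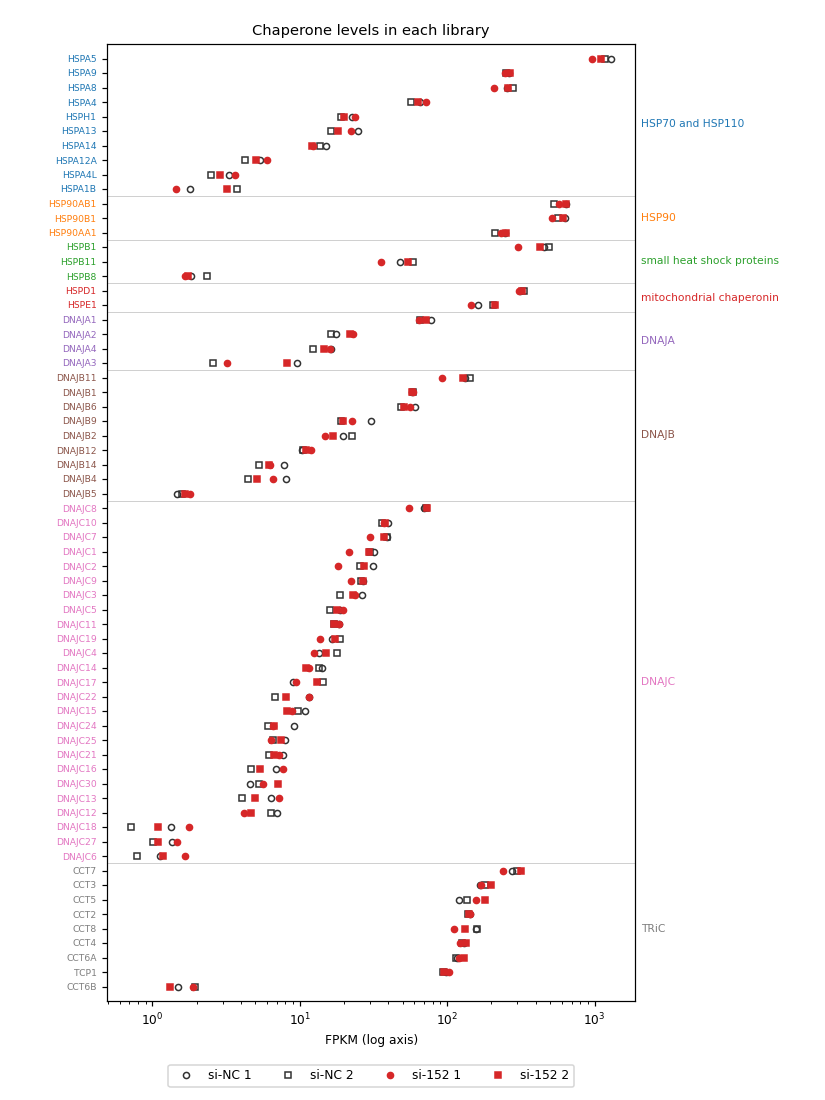
FPKM of the 65 tested chaperone genes in each library, on a log axis, grouped by family (coloured labels) and ordered within a family by mean level. Open black symbols are si-NC and filled red symbols si-152, with circles for replicate 1 and squares for replicate 2. HSPA5 lies between 956 and 1298.2 FPKM, the 8 main TRiC subunits lie between 93.3 and 317 FPKM, and DNAJC8 lies above the other DNAJC genes.

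With siRNA against LINC00152, no gene of these families changed past the adjusted test. At an adjusted p under 0.05 (limma's moderated test over 11222 genes, Benjamini-Hochberg), 0 of the 65 genes were called, against 0.0178% of all genes tested. On the log2(FPKM + 1) scale, a change of more than 1.5-fold either way was seen in 0 of the 65 (1.97% of all genes). So 0 were called by p under 0.05 together with that fold (1.66% of all genes, 0.597% higher and 1.06% lower). The added 1 shrinks the fold of genes with low values. With 0.1 added in its place, DNAJC12 had a log2 difference of -0.58 (-0.50 with 1), and 0 were again called by both. At the unadjusted p alone, 3 of 65 were called, which is 4.62% against 4.38% of all genes, that is, close to the background. DNAJA2 was the 1 gene higher in si-152 (1.89% of all genes), and DNAJB2 and DNAJC12 were the 2 that were lower (2.5% of all genes). With 2 libraries against 2, an exact permutation test of a single gene cannot go below p = 0.333, so these p-values rest on the spread that limma shares between genes. The precision still sets a limit on the log2(FPKM + 1) scale. There the 95% interval of the difference lay inside a 2-fold change either way for 64 of the 65 genes (96.1% of all genes). The exception was DNAJA3, and for 29 genes the interval lay inside a 1.5-fold change (48.5% of all genes). For genes with low values, such as HSPA1B, DNAJC6 and DNAJC18, these intervals do not bound the fold in FPKM itself.

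The groups did not overlap for 19 of the 65 genes, which is 29.2% against 30.4% of all genes. In 7 both si-152 libraries were above both si-NC libraries (10.8%, against 16.5% of all genes), and in 12 both were below (18.5%, against 13.9%). In the same-numbered pairs, 20 genes were higher in si-152 in both pairs (35.6% of all genes), 18 were lower in both (27.3%), and 27 went opposite ways (37.0%). The median log2 difference, si-152 minus si-NC on the log2(FPKM + 1) scale, was -0.016 over the 65 genes and 0.019 over all genes tested. Of the 65 differences, 36 were below 0 (45.8% of all genes). In pair 1 the medians were -0.10 for the chaperones and -0.031 for all genes, and in pair 2 they were 0.064 and 0.073, so that both were below 0 in pair 1 and above 0 in pair 2.

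**Figure D3:**
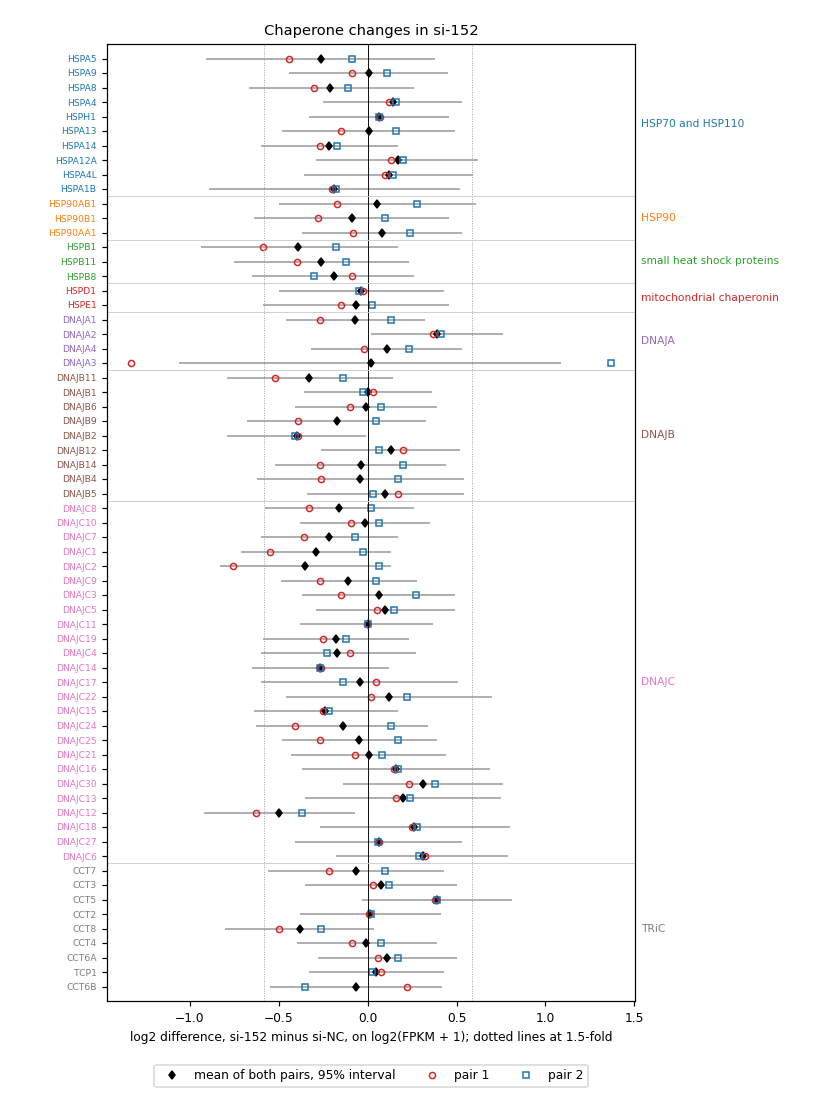
Log2 difference (si-152 minus si-NC) of the 65 tested genes, with 95% intervals from limma (grey bars, n = 2 libraries a group) and the difference within pair 1 (red circles) and pair 2 (blue squares). All means lie inside the dotted lines at a 1.5-fold change on the log2(FPKM + 1) scale. DNAJA3 has the widest split between pairs, at -1.33 and 1.37.

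The shift from replicate 1 to replicate 2 was averaged with its sign over both groups. It was larger in size than the group difference in 40 of the 65 genes (63.1% of all genes tested). Shifts in opposite directions cancel in this mean. For HSP90B1 they were -0.14 in si-NC and 0.24 in si-152, against a group difference of -0.091, and it is not among the 40. In 19 genes replicate 2 was the higher one in both groups and in 26 the lower one, together 69.2% of the 65 against 73.6% of all genes. HSPA1B, encoding the stress-inducible cytosolic HSP70, was at 1.81 and 3.74 FPKM in the control libraries and at 1.45 and 3.20 FPKM after si-152. Its level was thus about as far apart between replicates in either group, and its log2 difference between groups was -0.19 (95% interval -0.89 to 0.52). Single libraries set its direction: the log2 difference was 0.19 without si-NC replicate 2 and 0.20 without si-152 replicate 1, but -0.58 without si-152 replicate 2 and -0.56, past the unadjusted threshold, without si-NC replicate 1. HSPE1, the lid of the mitochondrial chaperonin, was at 162 and 206 FPKM in si-NC, against 146 and 209.7 FPKM in si-152, again with replicate 2 the higher one in each group. The 3 genes called at the unadjusted p differed more between groups than between replicates, which the test that called them selects for. Of the 65 genes, 29 had their lowest value in si-NC replicate 2 and 25 in si-152 replicate 1, which are the lowest libraries for 41.2% and 28.8% of all genes.

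**Figure D4:**
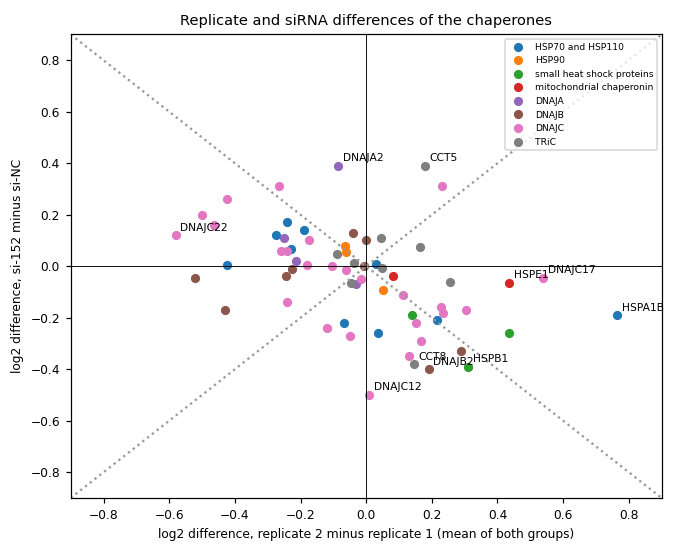
For the 65 tested genes, the mean log2 difference between replicate 2 and replicate 1 (x axis) is plotted against the log2 difference between si-152 and si-NC (y axis), coloured by family; dotted diagonals mark equal size. In 40 genes this signed mean is larger in size than the group difference, and HSPA1B lies farthest to the right.

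HSP70 and the related HSP110 genes encode the chaperones on which the DNAJ proteins act. The median log2 difference of the 10 tested genes was 0.0073, with a range of -0.26 to 0.17, and 0 of them had an unadjusted p under 0.05. HSPA5, also known as BiP, was at 1298.2 and 1176.8 FPKM with si-NC and at 956 and 1108.8 FPKM with si-152. The si-152 values were both below the si-NC values, and the log2 difference was -0.26 (SE 0.29, 95% interval -0.91 to 0.38), which did not exceed its error. HSPA8, the constitutive HSP70 of the cytosol, was at 255 and 278 FPKM in the control libraries and at 207 and 257 FPKM after si-152, so that the groups overlapped. Its log2 difference was -0.21 (95% interval -0.67 to 0.26). HSPA9, or mortalin, is the mitochondrial HSP70 and overlapped between groups, with 262 and 249.8 FPKM in the control and 246 and 269 FPKM after si-152 (95% interval of the log2 difference -0.44 to 0.45). HSPA12A, a distant relative, had the largest positive difference of the family, at 5.36 and 4.26 FPKM against 5.98 and 5.04 FPKM (0.17 on the log2 scale, SE 0.20).

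The inducible HSPA1A and HSPA6 were below the level for testing, whereas the inducible HSPA1B was above it. HSPA1A was listed at 0.024 and 0 FPKM in si-NC, against 0.0218 and 0 FPKM in si-152, and HSPA6 reached at most 0.0278 FPKM although its promoter holds the 3-unit element printed above. HSPA1A and HSPA1B encode nearly the same protein and their reads can hardly be told apart, so that the split between them is uncertain. HSPA1A, HSPA1B and HSPA1L lie side by side on chromosome 6 of GRCh38 (GENCODE v29, HSPA1A from 31815464 to 31817946). Of the 85 listed protein-coding genes that start within 1 Mb of HSPA1A, 18.8% reached the level for testing, against 58.6% of the other 18350 protein-coding genes. BAG6, a ubiquitously used co-chaperone from the same stretch (31639028 to 31652705), was listed at 0.058 to 0.19 FPKM. The part of the region in these low values was not tested.

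The 3 HSP90 genes were abundant, and each went opposite ways in the 2 pairs. HSP90AB1, the constitutive cytosolic form, was at 645 and 529 FPKM with si-NC and at 574 and 641 FPKM with si-152, with pair differences of -0.17 and 0.28. HSP90AA1, its inducible partner, was at 247 and 211 FPKM in the control libraries and at 233 and 249.7 FPKM after si-152 (log2 difference 0.078, 95% interval -0.37 to 0.53). HSP90B1, the ER form GRP94, was at 628 and 569 FPKM against 517 and 609 FPKM (log2 difference -0.091, 95% interval -0.64 to 0.46). None of the 3 was separated by group. The ratio of HSP90AB1 to HSP90AA1, which does not depend on library scaling, was 2.61 and 2.51 in si-NC and 2.47 and 2.57 in si-152.

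Small heat shock proteins had the lowest family median, -0.26 over 3 tested genes, which is the value of HSPB11. All 3 were lower in both pairs (27.3% of all genes), and with 3 genes nothing is read from this. HSPB1, or HSP27, which binds unfolding proteins and actin filaments, was at 453 and 488 FPKM in si-NC, against 301 and 429.7 FPKM in si-152. The groups did not overlap, and the log2 difference was -0.39 (SE 0.25, 95% interval -0.94 to 0.17). The lowest value was that of si-152 replicate 1: without this library the log2 difference was -0.13, and without si-152 replicate 2 it was -0.64 and past the unadjusted threshold. HSPB11, a component of intraflagellar transport rather than a classical chaperone, was at 47.6 and 58.6 FPKM with si-NC and at 35.8 and 53.9 FPKM with si-152, with overlap. HSPB8, which works with BAG3 in selective autophagy, was at 1.84 and 2.36 FPKM against 1.67 and 1.74 FPKM, without overlap and close to the level for testing. Of these 3 genes, 0 had an unadjusted p under 0.05. The mitochondrial chaperonin HSPD1 (HSP60) was at 313 and 334 FPKM in the control libraries and at 307 and 323 FPKM after si-152, and the ratio of HSPD1 to HSPE1 was 1.93 and 1.62 in si-NC and 2.11 and 1.54 in si-152. The replicates were farther apart in this ratio than the groups.

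DNAJA genes encode the J-domain proteins closest to bacterial DnaJ. DNAJA2 was at 17.6 and 16.2 FPKM in si-NC, against 22.9 and 21.9 FPKM in si-152. Both si-152 libraries were above both si-NC libraries, and the pair differences of 0.37 and 0.41 were alike. The log2 difference was 0.39 (SE 0.16, 95% interval 0.019 to 0.76, adjusted p = 0.9996 by limma), which is a 1.31-fold higher level. With any 1 of the 4 libraries left out, the unadjusted call was lost, while the log2 difference lay between 0.33 and 0.44. The DNAJA2 gene spans 46955362 to 46973788 of chromosome 16, minus strand (GRCh38, GENCODE v29). DNAJA1, the most abundant of the family and a holder of the 3-unit element, was at 77.6 and 65.9 FPKM with si-NC and at 64.2 and 72.2 FPKM with si-152, with overlap. The ratio of DNAJA2 to DNAJA1 was 0.227 and 0.246 in si-NC and 0.358 and 0.304 in si-152. DNAJA3, a mitochondrial J-protein that is also called TID1, was the most uneven of the 65 genes, with 9.54 and 2.57 FPKM in the control and 3.20 and 8.20 FPKM after si-152. Its group means were 6.06 ± 4.93 and 5.70 ± 3.53 FPKM (SD, n = 2), and each single library set its direction. The log2 difference was 0.80 without si-NC replicate 1 and 0.58 without si-152 replicate 1, but -0.76 without si-NC replicate 2 and -0.55 without si-152 replicate 2.

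DNAJB genes had a median log2 difference of -0.037 over 9 tested genes. DNAJB2, a J-protein with ubiquitin-interacting motifs, was at 19.8 and 22.8 FPKM in the control libraries and at 14.8 and 16.9 FPKM after si-152. Both si-152 values were below both si-NC values, and the pair differences were -0.39 and -0.41. The log2 difference was -0.40 (SE 0.17, 95% interval -0.79 to -0.012, adjusted p = 0.9996 by limma). The unadjusted call was lost without si-NC replicate 2 (log2 difference -0.30), without si-152 replicate 1 (-0.31) and without si-152 replicate 2 (-0.49). The DNAJB2 gene spans 219279267 to 219286900 of chromosome 2, plus strand. DNAJB11, the ER partner of HSPA5 and the most abundant DNAJB gene, was at 132 and 142 FPKM in si-NC, against 92 and 129 FPKM in si-152. The groups did not overlap, the pairs differed by -0.52 and -0.14, and the log2 difference was -0.33 (SE 0.21, 95% interval -0.79 to 0.14). It was -0.085 without si-152 replicate 1, and -0.57 and past the unadjusted threshold without si-152 replicate 2. The ratio of DNAJB11 to HSPA5 was 0.102 and 0.121 in si-NC and 0.0962 and 0.116 in si-152, with overlap between the groups. DNAJB12, anchored in the ER membrane, had the largest positive difference of the family, at 10.3 and 10.5 FPKM against 12 and 11 FPKM. DNAJB1, the classical heat-inducible partner of HSP70, was nearly constant, between 57.5 and 59.1 FPKM in the 4 libraries.

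DNAJC genes are a diverse class that keeps the J domain and adds other functions, from clathrin uncoating to splicing. Their median log2 difference was -0.045 over 25 tested genes, with 10 higher and 15 lower in si-152. DNAJC12, a cytosolic co-chaperone needed for the folding of aromatic amino acid hydroxylases, had the largest difference of all 65 genes. It was at 7.01 and 6.36 FPKM in si-NC (6.69 ± 0.463, SD, n = 2) and at 4.18 and 4.70 FPKM in si-152 (4.44 ± 0.365, SD, n = 2). The groups did not overlap, and the log2 difference was -0.50 (SE 0.19, 95% interval -0.92 to -0.073, adjusted p = 0.9996 by limma). The unadjusted call was lost without si-NC replicate 1 (log2 difference -0.44), without si-152 replicate 1 (-0.43) and without si-152 replicate 2 (-0.57). The DNAJC12 gene spans 67796665 to 67838166 of chromosome 10, minus strand. DNAJC14 was close to constant within each group, with 14.1 and 13.6 FPKM in the control and 11.6 and 11.1 FPKM after si-152. Its pair differences were -0.26 and -0.27 (95% interval of the mean -0.65 to 0.12). DNAJC30, a mitochondrial J-protein, had the largest positive difference of the class, from 4.63 and 5.27 FPKM to 5.62 and 7.16 FPKM (0.31 on the log2 scale, SE 0.20). DNAJC8, a spliceosome-associated J-protein and the most abundant of the class, was at 69.5 and 72.1 FPKM with si-NC and at 55.1 and 73.0 FPKM with si-152, with overlap.

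TRiC is assembled from 8 different subunits in equal number, and their mRNAs differed in level and in direction. CCT7 was the most abundant (mean 282 FPKM) and TCP1, the first subunit named, the least (97.2 FPKM). CCT7 lay above all values of CCT3, and CCT6A above all values of TCP1, while the subunits between them (CCT3, CCT5, CCT2, CCT8, CCT4 and CCT6A, in this order of means) each overlapped the next one. CCT6B, a testis-type subunit, was at 1.31 to 1.94 FPKM. The median log2 difference of the 9 tested genes was 0.014, with pair medians of 0.029 and 0.077.

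CCT5 was at 121 and 137 FPKM in the control libraries and at 158 and 179.7 FPKM after si-152, with pair differences of 0.38 and 0.39. CCT8 was at 157 and 159 FPKM in si-NC, against 110.5 and 133 FPKM in si-152, with pair differences of -0.50 and -0.26. The groups did not overlap for either gene. The log2 differences of 0.39 (SE 0.19, 95% interval -0.031 to 0.81) and -0.38 (SE 0.19, 95% interval -0.80 to 0.038) both missed the unadjusted threshold, but CCT5 was past it with quantile normalization (0.49) and CCT8 without si-152 replicate 2 (-0.51). The ratio of CCT5 to CCT8 within a library, which does not depend on scaling, was 0.771 and 0.859 in si-NC and 1.43 and 1.35 in si-152, so the order of the pair was turned. This ratio was chosen after the values were seen and is given without a test. CCT6A was also without overlap, at 116 and 115 FPKM against 121 and 129.7 FPKM, but with a log2 difference of only 0.11 (SE 0.17). CCT2 stayed between 138 and 143 FPKM and CCT4 between 122 and 134 FPKM in all 4 libraries. CCT3 was at 168 and 182 FPKM against 171 and 198 FPKM, and CCT7 at 277 and 297 FPKM against 238 and 317 FPKM, both with overlap. CCT5 lies on chromosome 5 (plus strand, 10249921 to 10266412) and CCT8 on chromosome 21 (minus strand, 29055805 to 29073797).

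**Figure D5:**
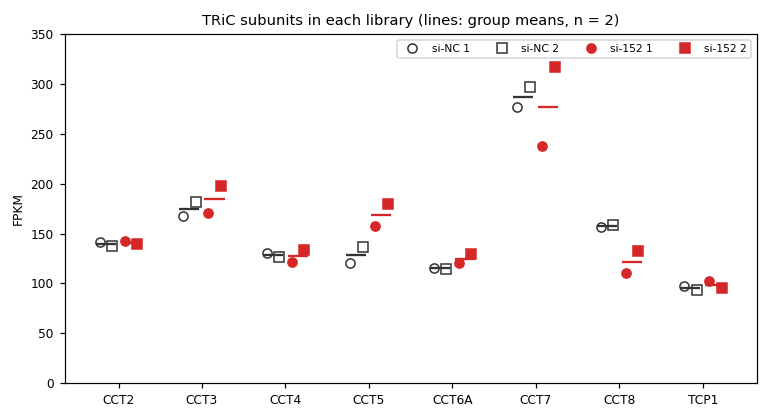
FPKM of the 8 main TRiC subunits in each library (open black, si-NC; filled red, si-152; circles, replicate 1; squares, replicate 2), with short lines at the group means (n = 2). CCT5 is higher and CCT8 lower in both si-152 libraries than in both si-NC libraries, while CCT2 stays between 138 and 143 FPKM.

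Among the ER genes, the mitochondrial genes and the genes commonly induced by HSF1, 0 passed the unadjusted test. The 10 ER genes had a median log2 difference of -0.064, with 7 of 10 lower (45.8% of all genes). In 4 of the 10 the groups did not overlap (30.4% of all genes): DNAJB11, DNAJC1 and HSPA5 were below si-NC (13.9%) and DNAJB12 above it (16.5%). With 10 genes chosen by compartment, nothing is read from these shares. The 8 mitochondrial genes had a median of -0.019. The 11 tested genes commonly induced by HSF1 had a median of -0.038, with 5 higher and 6 lower. The 6 tested genes with a 3-unit heat shock element had log2 differences between -0.21 and 0.078 and a median of -0.025, and 0 of them had an unadjusted p under 0.05 by limma. The 39 tested genes whose window held neither pattern had a median of -0.016 and included the 3 genes called at the unadjusted p. HSPE1 is among the 39, although the HSPD1 stretch printed above (chr2:197500061-197500090) lies within the HSPE1 gene of GENCODE v29 (197499994 to 197503457). Levels differed more: the 6 genes averaged from 54.2 to 597 FPKM with a median of 242 FPKM, against a median of 18.6 FPKM for those 39. The 39 ranged from 1.23 FPKM up to HSPA5 at 1135 FPKM, and the 20 genes with 2 units or more had a median of 64.1 FPKM. Only 2 of 25 DNAJC genes held a pattern, so pattern and family cannot be told apart. A link of pattern with level was not tested. HSF1 mRNA itself was at 47.8 and 47.9 FPKM with si-NC and at 51.2 and 55.6 FPKM with si-152 (log2 difference 0.15, 95% interval -0.21 to 0.52).

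Partner genes that do not belong to these families were read from lists. Of 22 tested co-chaperones of HSP70 and HSP90, 3 had an unadjusted p under 0.05 (4.38% of all genes). ST13, or HIP, which stabilises the HSP70 client complex, was at 53.2 and 47.6 FPKM in the control libraries and at 66.4 and 66.7 FPKM after si-152 (log2 difference 0.40, SE 0.17). CDC37L1, a relative of the HSP90 kinase adaptor CDC37, was at 11.0 and 9.82 FPKM against 7.15 and 7.11 FPKM (-0.49, SE 0.18). CHORDC1, an HSP90 co-chaperone, was at 28.6 and 20.4 FPKM against 14.7 and 18.8 FPKM (-0.51, SE 0.21). All 3 had an adjusted p of 0.9996 by limma, and the unadjusted call was lost for ST13 with any 1 library left out (log2 difference 0.32 to 0.48). It was lost for CDC37L1 without si-NC replicate 1 (-0.41) or either si-152 library (-0.49 each), and for CHORDC1 without si-NC replicate 1 (-0.28) or si-152 replicate 1 (-0.34).

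Of 9 mitochondrial folding partners, 1 was called at the unadjusted p (11.1%, against 4.38% of all genes). This gene also passed with a fold above 1.5 (1.66% of all genes), and it had the largest difference among the genes named here. PAM16, the regulator of the J-protein DNAJC19 at the mitochondrial import motor, was at 14.1 and 19.8 FPKM in si-NC, against 7.11 and 6.59 FPKM in si-152. Both si-152 values lay at or below 7.11 FPKM, and the log2 difference was -1.18 (SE 0.20, 95% interval -1.63 to -0.72, adjusted p = 0.2229 by limma). It stayed between -1.41 and -0.94 with each library left out. The readthrough symbol CORO7-PAM16, which shares exons with it, reached at most 1.03 FPKM. DNAJC19 was at 16.6 and 18.8 FPKM with si-NC and at 13.8 and 17.3 FPKM with si-152, with overlap. Prefoldin delivers actin and tubulin to TRiC. Its subunits and further TRiC cofactors had log2 differences below 0 in all 9 genes (45.8% of all genes tested), with a median of -0.21. Of these 9 genes, 0 had an unadjusted p under 0.05. Their median was -0.43 in pair 1 and -0.021 in pair 2. Of the 9, 5 were lower in both pairs (27.3% of all genes) and 4 went opposite ways (37.0%). PFDN6 was close to the level for testing, at 0.524 to 1.45 FPKM. Of 13 ER folding partners, 0 were called at the unadjusted p, and of the 4 heat shock factor genes likewise 0.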

How the data were processed

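Total RNA from 4 HCT116 libraries was sequenced, and each deposited table lists gene symbols with their value in that library. The submitters' processing notes name Trimmomatic, TopHat, HISAT2, HTSeq, DESeq and GRCh38; which tool made the values is not given in the sources used here. The values the authors deposited were read as FPKM, inferred from decimals and unequal sums. The chaperone genes and all lists were chosen with earlier results of these data known. No scaling was applied. After adding a pseudocount of 1, log2 values were compared by limma 3.58.1 (R 4.3.3, mean-variance trend, Benjamini-Hochberg adjustment). A gene entered if 2 or more libraries reached 1 FPKM, which 11222 genes did. Family medians are descriptions without a test. The code was tested on simulated data. Genes named were those with an unadjusted p under 0.05, the most abundant and the largest differences of each family, all TRiC and HSP90 genes, the main HSP70 genes and the mitochondrial chaperonin; other names were chosen after their values were seen. Reads of pseudogenes and near-identical copies could not be separated here. Alternatives covered the pseudocount, the filter, the scaling, the trend, the replicate block and each library left out. Promoter windows came from RefSeq (GRCh38.p14) and gene positions from GENCODE v29.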

Additional observations from a re-analysis of the deposited data

How the results depend on the processing

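Depth is unknown, and 2 libraries per group limit every value. Of 37 named genes with a fit, 21 kept the sign of their difference under every alternative. At an unadjusted p under 0.05 there were 9 genes with the replicate block (13.8%, against 16.9% of all genes tested) and 1 without the mean-variance trend (DNAJC12; 4.17% of all genes), in place of 3. The adjusted count was 0 in every setting (0.695% of all genes with the block). The 9 were CCT5, CCT8, DNAJA2, DNAJB2, DNAJB11, DNAJC12, DNAJC14, DNAJC30 and HSPB1. Across genes, the 2 groups' replicate deviations had a correlation of 0.52; with 2 pairs this does not show that the numbers pair the samples. The unadjusted call was also lost for ST13 with size factors (0.38) or without the trend, and for CHORDC1 without the filter (-0.51). Among partners, the block gave PAM16 an adjusted p of 0.0154 by limma. At the unadjusted p it called 3 of 9 prefoldin and TRiC cofactors (PDCL, PFDN1 and PFDN5) in place of 0, 5 of 22 co-chaperones in place of 3, 1 of 13 ER folding partners (MANF) and 1 of 4 heat shock factors (HSF4) in place of 0, against 16.9% of all genes.

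With quantile normalization the median of TRiC was 0.10 and that of the mitochondrial chaperonin 0.045 (main -0.051), and the sign turned for CCT4 (0.074), CCT7 (0.058), DNAJA3 (-0.033), HSP90B1 (0.066), HSPD1 (0.08) and HSPE1 (0.0096). With size factors it turned for CCT2 (-0.0055) and HSPA9 (-0.01). The medians of TRiC (-0.0055) and of HSP70 and HSP110 (-0.012) also turned with size factors. That of HSP70 and HSP110 was -0.0015 without the filter, and that of all members tested was 0.0019 with quantile normalization. The cause was not tested. Leaving out single libraries, the genes higher at p under 0.05 and a fold change above 1.5 numbered 0 to 1 (DNAJA3, without si-NC replicate 1), those lower 0 to 2 (DNAJA3 without si-NC replicate 2, DNAJC2 and HSPB1 without si-152 replicate 2), and those at the unadjusted p 0 (without si-152 replicate 1) to 6 (without si-152 replicate 2). Medians ranged from -0.55 to -0.12 for small heat shock proteins, -0.2 to 0.1 for the mitochondrial chaperonin, -0.28 to 0.12 for DNAJB, -0.13 to 0.37 for DNAJA, -0.15 to 0.056 for DNAJC, -0.089 to 0.19 for HSP90, -0.039 to 0.11 for HSP70 and HSP110, 0.015 to 0.06 for TRiC and -0.081 to 0.054 for all 65 genes. With each library left out, only those of TRiC and the small heat shock proteins kept their sign, and that of TRiC turned with size factors. HSPA8 ranged from -0.36 to -0.051, HSPA12A from 0.031 to 0.3 and DNAJC30 from 0.16 to 0.46. Leaving out a library turned the sign of these differences, which then ranged as follows: CCT2 from -0.0064 to 0.034, CCT3 from -0.03 to 0.18, CCT4 from -0.074 to 0.06, CCT7 from -0.27 to 0.14, DNAJA1 from -0.19 to 0.046, DNAJA3 from -0.76 to 0.8, DNAJC8 from -0.36 to 0.042, HSP90AA1 from -0.034 to 0.19, HSP90AB1 from -0.089 to 0.2, HSP90B1 from -0.21 to 0.027, HSPA1B from -0.58 to 0.2, HSPA9 from -0.056 to 0.074, HSPB11 from -0.55 to 0.027, HSPD1 from -0.084 to 0.0089, HSPE1 from -0.33 to 0.2 and TCP1 from -0.0074 to 0.11.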
